A study of Mus musculus with 8 samples.

Results

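The genes described here were those raised only in line m9327, 1 of the 2 lines of ErbB2+ mouse mammary tumor cells with conditional deletion of c-Src. They were chosen by their own measured values in all 8 RNA-Seq libraries, and 180 of the 39993 genes in the deposited table met the choice. Averaged over the 8 libraries, a gene had to reach 0.5 FPKM, which 12673 genes did. FPKM scales the fragments assigned to a gene by transcript length and library total. The mean of the m9327 duplicates on the log2(FPKM + 1) scale had to lie at least 1 above that of each of the other 3 lines. In addition, the mean of line m4447, the other c-Src-deficient line, had to lie less than 1 from the mean of the control lines. Finally, genes under 1 FPKM in all 4 control libraries and at 1 FPKM or more in all 4 libraries of the deficient lines were dropped.

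RNA-Seq was performed on 4 independent cell lines from MMTV-NIC mammary tumors, each in biological duplicate. Lines m5567 and m8905 were NIC/c-Src+/+, with wild-type Src on both alleles, and lines m4447 and m9327 were NIC/c-SrcL/L, with LoxP-flanked Src on both alleles. All 4 lines came from FVB/N mice, carried the MMTV-NIC transgene and were used at passages 10 to 15. They were grown in medium with serum, EGF, hydrocortisone, insulin and bovine pituitary extract. The transgene places oncogenic ErbB2 and Cre recombinase on 1 transcript under the MMTV promoter, which is active in mammary epithelium, so the control lines express Cre as well. Each genotype was represented by 2 lines, and the duplicates of a line share its tumor of origin and its history in culture. A value that sets m9327 apart therefore belongs to a single line.

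c-Src is a non-receptor tyrosine kinase that acts downstream of receptor tyrosine kinases such as ErbB2, and it signals to growth, adhesion and survival pathways. In the MMTV-NIC model the recombinase is made by the same cells as the oncogene, so that conditional alleles are deleted in the cells that form the tumor. Cell lines grown from separate tumors of 1 genotype commonly differ in the genes they express, through the tumor of origin, further mutation, chromatin state and selection in culture. The deposited identifiers are of the FVB/NJ strain annotation, and 0 of the 39993 were found in the reference tables used here. Gene names, functions, genome positions and sequences of the members, the Src transcript and markers of cell types were therefore not analysed here. As in any bulk culture, fewer cells expressing a gene and less RNA per cell cannot be told apart.

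Before any other criterion, line m9327 lay at least 1 above line m4447 in 839 of the 12673 genes, and above both control lines in 611. It lay at least 1 above all 3 other lines in 233 genes. The limit on m4447 then removed 48 genes, in 35 of which m4447 was above the control mean and in 13 below it. The last step dropped 5 more, in which m4447 was at 1.06 to 3.02 FPKM and no control library exceeded 0.985 FPKM. Most genes that were high in m9327 alone thus met the whole choice.

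Height is used below for the distance, on the log2 scale, from the m9327 mean to the highest of the other 3 line means. The member closest to the threshold had a height of 1.0021, with 2.45 and 3.40 FPKM in m9327 and 0.466 to 1.30 FPKM in the other 6 libraries. The closest gene left out had a height of 0.9915. On the limit for m4447, the outermost member lay 0.9996 above the control mean and the nearest gene left out 1.0011 above it. The member with the lowest mean over the 8 libraries had 0.512 FPKM, and the nearest gene left out had 0.488 FPKM. The set has no gap at its borders, since 23 members had a height of less than 1.1 and 89 a height of less than 1.5.

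The median height of the members was 1.51, with quartiles of 1.23 and 1.96 and a highest value of 4.60. A height of 2 or more was reached by 41 members, of 3 or more by 14, and of 4 or more by 6. The distance from m9327 to each single line was alike, with medians of 1.85 to m5567, 1.80 to m8905 and 1.80 to m4447. These values describe the choice and were not tested. The moderated standard error of m9327 minus the mean of the other lines, from a limma fit of the 8 libraries, had a median of 0.10 and ran from 0.07 to 0.55. The m9327 duplicates differed by a median of 0.14 in the members and 0.13 in all genes tested, so the duplicates were about as close in the members as in other genes.

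**Figure D1:**
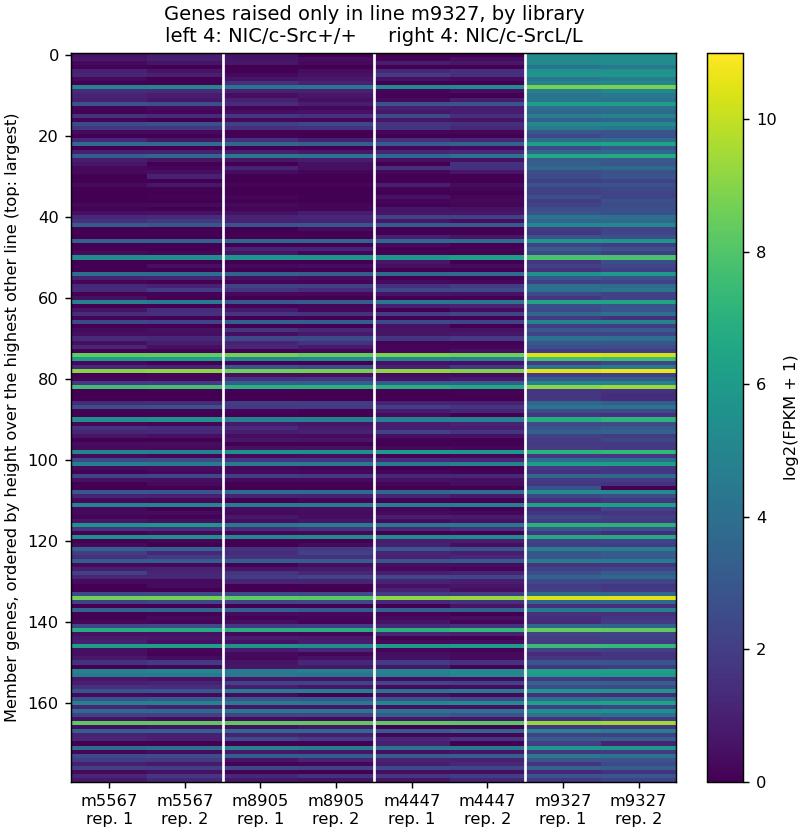
Each line across the panel is 1 of the 180 members and each column 1 library, colored by log2(FPKM + 1), with the largest height at the top. The pair of m9327 columns is brighter than the other 6 from top to bottom, apart from 1 member with no reads in m9327 replicate 2.

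In the libraries themselves, the median member stood at 6.44 and 6.57 FPKM in m9327. It stood at 0.617 and 0.565 FPKM in m5567, 0.640 and 0.651 FPKM in m8905, and 0.642 and 0.599 FPKM in m4447. The median of the other deficient line was thus close to those of the control lines, while the choice let single members lie up to 1 from the control mean on the log2 scale. Both m9327 libraries lay above all 6 others in 179 of the 180 members, where 12.7% of all genes tested did so, a contrast that the choice itself used. Of the reads in a library, the members took 1.07% and 1.12% in m9327 and 0.251% to 0.317% in the other 6. Without the member with the most reads in m9327 these shares were 0.904% and 0.942%, against 0.214% to 0.240%.

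MGP_FVBNJ_G0029467 had the largest height. Its FPKM was 36.3 and 40.3 in m9327, 0.469 and 0.790 in m5567, 0.452 and 0.00 in m8905, and 0.00 in both m4447 libraries. The m9327 libraries did not overlap the others, and the lower of them was 46.0 times the highest other library. The values rest on 696 and 676 reads in m9327, on 8, 14, 9 and 0 reads in the control libraries and on 0 reads in m4447. Against a floor of 3 reads over both m4447 libraries, 0.0792 FPKM for this gene of 1121 bp, m9327 was at least 484-fold higher. On the log2 scale m9327 lay 4.97 above the mean of the other lines (standard error 0.14). Its height was 4.60 with both duplicates and between 4.46 and 4.74 with any 1 library left out. It depended more on the pseudocount, at 5.75 with 0.1 in place of 1. These settings for single genes were chosen after the data had been seen.

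MGP_FVBNJ_G0033514, of 722 bp, had the highest mean FPKM in m9327 among the remaining members. It stood at 1507 and 1733 FPKM in m9327, 514 and 556 in m5567, 401 and 425 in m8905, and 567 and 486 in m4447. All 8 libraries held the transcript at a high level, and the m9327 libraries lay above the other 6 without overlap. The m9327 mean of 1620 ± 160 FPKM (SD, n = 2 libraries) was 3.03 times that of m5567, the next highest line, at 535 ± 29.7 FPKM. Its height of 1.59 ranked 79 among the 180 members, and m9327 lay 1.73 above the mean of the other lines (standard error 0.10). This gene alone took 10.6% of the reads on members in m9327. The identifiers named here thus differed in kind, 1 close to absent outside m9327 and 1 abundant everywhere.

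**Figure D2:**
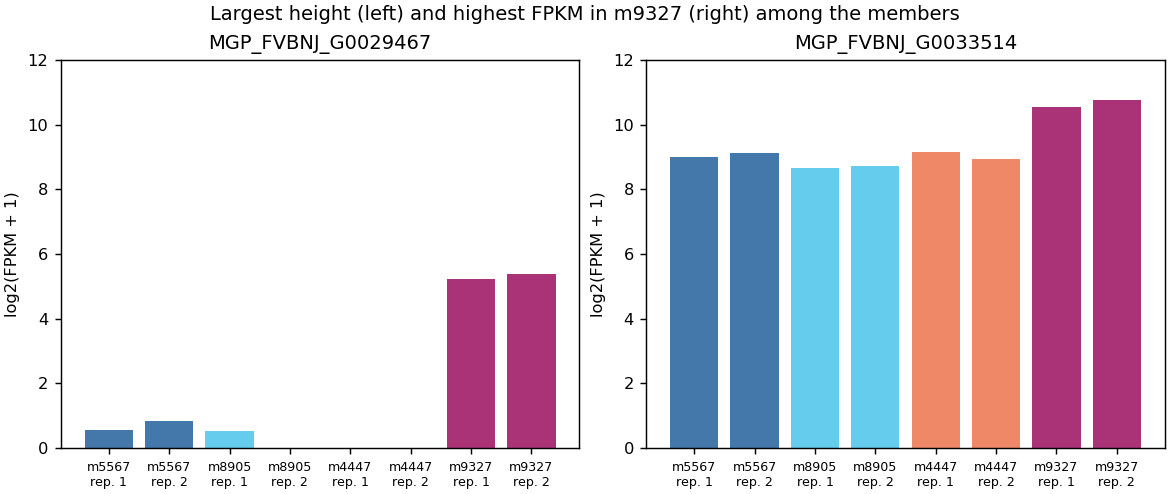
Bars give log2(FPKM + 1) in each of the 8 libraries for MGP_FVBNJ_G0029467 (left) and MGP_FVBNJ_G0033514 (right). The left gene is at or near 0 outside m9327, while the right gene is above 8 in every library and highest in m9327.

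The starting level, that is the level in the other 3 lines, split the members into 3 kinds. In 78 members (43.3%) all 6 libraries of the other lines were under 1 FPKM, and 77 of these were at 1 FPKM or more in both m9327 libraries. Another 58 members (32.2%) were at 1 FPKM or more in all 6, and the remaining 44 (24.4%) had values on both sides of that level. Among all genes tested, 2.51% were under 1 FPKM in the 6 libraries and 79.4% were at or above it in all of them. A gene with a mean under 0.5 FPKM in the other 6 libraries entered the test only if m9327 lifted its mean. Of the 180 members, 97 would have passed the same minimum on the 6 other libraries and 83 passed it through m9327, so nothing is drawn from the large share of low genes. At a mean of at least 2 FPKM the set held 92 members, 9 of them low in this sense.

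The 78 low members had a median of 0.155 FPKM in the other 6 libraries and 2.90 FPKM in m9327, with heights of 1.02 to 4.60. Their level in m9327 is partly set by the minimum on the mean and the limit on height, so nothing is drawn from it. A height of 2 or more was reached by 22 of the 78. Of their 468 values in the other lines, 237 (50.6%) rest on 3 reads or fewer and 124 on 0 reads, which at this depth cannot be told from absence. Of all 180 members, 4 had 0 reads in the 6 other libraries, where 0.0316% of all genes tested did. In both m4447 libraries 14 of the 180 had 0 reads, where 0.907% of all genes did. Nothing is drawn from either count.

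The 58 members expressed in every library had a median of 8.84 FPKM in the other lines and 34.1 FPKM in m9327. Here the change was one of degree, with m9327 at a median of 2.83 times the highest other line mean in FPKM and quartiles of 2.36 and 3.60. Heights ran from 1.01 to 3.54, and 7 of the 58 reached 2. None of their 348 values in the other lines rested on 3 reads or fewer. Members at 100 FPKM or more in both m9327 libraries numbered 14. The 44 members between these kinds moved from a median of 0.869 FPKM to 6.63 FPKM.

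**Figure D3:**
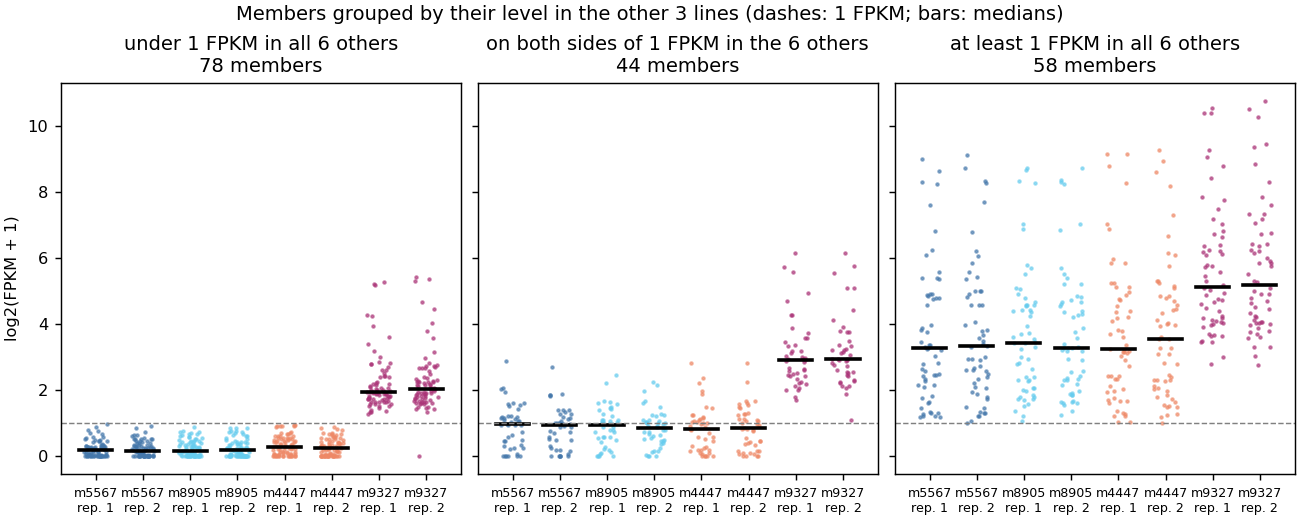
Points are members and bars their medians, as log2(FPKM + 1) in each library, in panels for the 78 members under 1 FPKM in the 6 other libraries, the 44 on both sides of it and the 58 at or above it. The m9327 medians are highest in each panel. Median differences of m4447 from the control mean are 0.05, -0.23 and 0.11 on the log2 scale, from left to right.

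A few members rest on little data. In 11 of the 180, at least 1 m9327 library held 20 reads or fewer as solved. Solved reads are the smallest numbers that give all of a gene's FPKM values, so where reads and length share a divisor the true numbers are higher. For 1 of them a single library, m9327 replicate 1, was above 0 at 5.85 FPKM, and m9327 replicate 2 was listed at 0. It is the only member whose m9327 libraries did not both lie above the others and the only one whose m9327 duplicates lay further apart than its height. The reads behind that value cannot be solved beyond the ratio of reads to length, since 1 value does not fix both.

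The choice was then made on the libraries numbered 1 in each line, and the values were read in the libraries numbered 2, which that choice had not used. It took 176 genes, with a median height of 1.49. In the libraries numbered 2 their median height was 1.48, and 146 of them (83.0%) reached a height of at least 1, where 1.88% of the 12682 genes tested did. With the numbers exchanged, 174 genes were chosen with a median height of 1.54. Their median in the libraries numbered 1 was 1.38, and 141 (81.0%) reached 1, where 1.87% of 12672 genes did. The whole choice was met again by 129 genes in each direction, 73.3% and 74.1% of those chosen. A height above 0 was kept by 166 of the 176 genes and 171 of the 174. Among genes tested, 19% and 24.9% had a height above 0. The lowest heights of chosen genes in the other duplicate were -1.44 and -1.17. Most of the elevation was thus repeated in the other duplicate, while about 1 gene in 4 crossed a threshold between them and some lost the elevation. The duplicates are cultures of 1 line, so this shows repeatability within m9327 and not within the genotype.

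**Figure D4:**
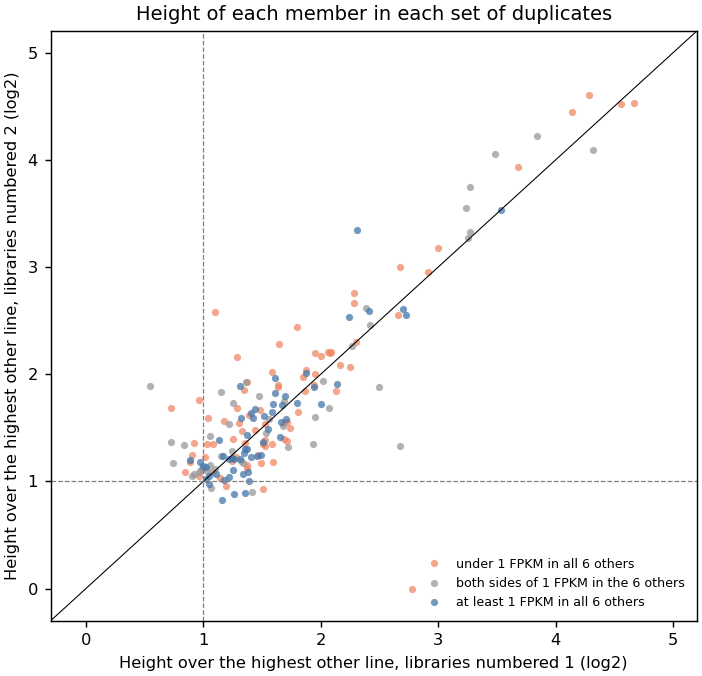
Each point is 1 of the 180 members, with its height (log2) computed from the libraries numbered 1 alone on the horizontal axis and from those numbered 2 alone on the vertical axis, colored by level in the other lines. Dashes mark a height of 1, which 152 members reached on both axes, a count that follows from the choice, since it used the mean of these same duplicates. The point at 0 on the vertical axis is the member with no reads in m9327 replicate 2.

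Whether the set separated the genotypes was asked with the line as the unit, 2 against 2. In limma on line means with Benjamini-Hochberg adjustment over 12673 genes, 0 of the 180 members passed an adjusted p of 0.05, where 0.45% of all genes passed with higher values in NIC/c-SrcL/L. At an unadjusted p under 0.05 there were 11 members (6.11%), beside 21.9% of all genes. The lowest adjusted p of a member was 0.174, and the members' genotype differences had a median of 0.95 on the log2 scale. Voom on the reads solved from the FPKM called 0 members and 0% of all genes, with 11 members and 22% of all genes at an unadjusted p under 0.05. The choice held the lines of the deficient genotype apart, so these counts follow from it. With the 8 libraries fitted with 1 coefficient per line, which measures these 4 lines against the spread of duplicates, 175 members were called higher, where 28.7% of all genes were. That contrast averages m9327 with m4447, whose values the choice used, and nothing is read from it.

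The control lines were also compared with each other. Their difference was not a criterion, but the values of both lines entered the choice, so the counts of members are a description. Line m5567 differed from m8905 in 59 of the 180 members (32.8%) at an adjusted p under 0.05, where 23.9% of all genes tested did (limma, 8 libraries, 1 coefficient per line). Of the 59, 28 were higher in m5567, where 12% of all genes were, and 31 in m8905, where 11.9% were. The members expressed in all 6 libraries of the other lines were called in 31 of 58 cases (53.4%), beside 22.2% of the 10063 genes tested at that level. Those on both sides of 1 FPKM were called in 21 of 44 cases (47.7%, beside 33.3%) and those under it in 7 of 78 (8.97%, beside 10.1%). The share called was thus higher in the expressed members than over all genes of that level, and the difference between these shares was not tested. The size of the difference had a median of 0.20 in the members and 0.20 in all genes. By level its median was 0.37 in the expressed members, 0.46 in those on both sides of 1 FPKM and 0.07 in those under it. Differences of 1 or more were found in 17 members (9.44%), beside 4.98% of all genes tested. These p-values measure the spread between duplicates and compare the 2 lines. Without m5567 replicate 2 the count was 39 (21.7%), where 14.4% of all genes were called.

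Line m4447 was held near the controls by the choice, and within that limit it lay on either side of them. It was above the control mean in 97 members, where 42.5% of all genes were, and below it in 79, where 57.5% were. The 4 others had 0 reads in all of these libraries. The median difference was 0.04, with quartiles of -0.26 and 0.34. Over the 10186 genes tested that met the same limit on m4447, the median was -0.08, with quartiles of -0.41 and 0.25. Over all genes tested m4447 lay at a median of -0.11 from the controls. Set against that last median, 119 members were higher. Quantile normalization moved the median over all genes to -0.01 and left 110 members above it, and rescaling by the median ratio left 108. Both m4447 libraries lay above all 4 control libraries in 43 members, where 27.5% of all genes did, and below all 4 in 37, where 39.3% did. All genes tested include those outside the limit on m4447, so nothing is read from the gaps between members and all genes. Of the 3 other lines, the one closest to m9327 was m4447 in 74 members, m5567 in 54 and m8905 in 48, with the 3 lines tied at 0 in the remaining 4. Line m4447 was the highest other line in 41.1% of members and 35.6% of all genes tested.

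The same choice, without its last step, was applied with each line in turn in place of m9327 and the other line of its genotype in place of m4447. It found 185 genes raised in m9327 only, 241 in m4447, 103 in m5567 and 80 in m8905. Genes lowered in 1 line only numbered 49 in m9327, 255 in m4447, 53 in m5567 and 26 in m8905. The minimum on the mean bears differently on the 2 directions, since a raised gene can pass it through its own line. Of the 185 raised genes of m9327, 78 were under 1 FPKM in the other 6 libraries, as were 0 of the 49 lowered ones, so nothing is read from the contrast of raised with lowered counts. In m4447 the order of the 2 counts depended on the processing, with 302 raised and 216 lowered after quantile normalization, 292 and 220 after rescaling by the median ratio, and 216 and 313 in the libraries numbered 1 alone. These settings were chosen after the data had been seen. The lowered genes depended on the pseudocount, and with 0.1 in place of 1 they numbered 110 in m9327, where 159 were raised, and 481 in m4447, where 288 were raised. The median height of the raised genes was 1.51 in m9327, 1.30 in m4447, 1.29 in m5567 and 1.41 in m8905. Each count belongs to a single line, and the differences between the counts were not tested.

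**Figure D5:**
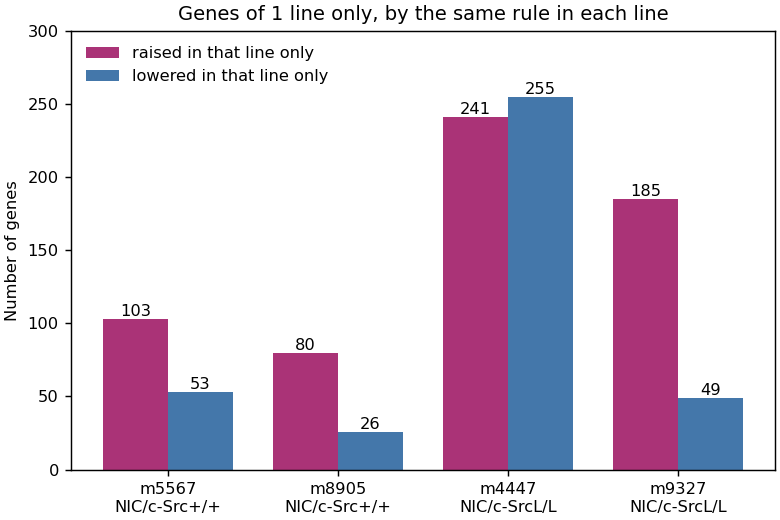
Bars give the number of genes raised (left) or lowered (right) in 1 line only by the same choice, without its last step, in each of the 4 lines. Line m4447 has the most genes in each direction at a difference of at least 1. At a difference of at least 1.5 the order of raised genes turned, with 94 in m9327 and 78 in m4447.

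Gene length, solved together with the reads from the FPKM, was not used by the choice. The members had a median length of 1346 bp, with quartiles of 879 and 2283 bp, compared with 1717 bp and quartiles of 1103 and 2634 bp over all genes tested. Genes raised in 1 other line only had medians of 1819 bp in m4447, 1554 bp in m5567 and 1402 bp in m8905, and those lowered in m9327 only had 1282 bp. A median below that of all genes tested was thus not limited to the members. The lower members were not the shorter ones, with a median of 1487 bp under 1 FPKM in the other lines. The median was 1256 bp in members on both sides of that level and 1319 bp in those at or above it in all 6. Lengths under 250 bp were solved for 5 members, and these are lowest possible lengths where few libraries hold reads.

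Members with consecutive identifier numbers were few. A total of 8 members had an identifier 1 away from that of another member, forming 4 pairs. They made up 4.21% of the 190 tested genes next to a member, while members made up 1.42% of all genes tested. For the genes raised in m4447 only, the same shares were 2.87% and 1.90%. In m5567 they were 5.83% and 0.813%, and in m8905 they were 0% and 0.631%. Within 5 identifier numbers, a distance chosen after seeing the data, 24 members fell into 11 groups of at most 3, 1 of which held MGP_FVBNJ_G0029467. Those 24 made up 2.8% of the 857 tested genes within that distance of a member, beside 1.42% of all genes tested. At this distance the shares were 2.14% and 1.90% for m4447, 5.47% and 0.813% for m5567, and 0% and 0.631% for m8905. The differences between these shares were not tested. Whether neighbouring identifiers are neighbours on the chromosome was not analysed here, and reads shared between similar genes were not tested. Most members thus stood apart from each other in the numbering.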

How the data were processed

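The authors aligned paired-end poly(A) RNA-Seq reads to the FVB/N genome, counted reads per gene and deposited FPKM. The submitters' processing notes name Bowtie2 2.2.3, TopHat2 2.0.12 and HTSeq 0.6.1, and also DESeq, which was not rerun. The main tests used the deposited FPKM, and reads solved from it served for descriptions and for voom. Lines and duplicates came from the sample labels. Values were used as log2(FPKM + 1), unscaled, for genes averaging 0.5 FPKM or more. Tests were limma 3.58.1 in R 4.3.3, with p-values adjusted by Benjamini-Hochberg and called under 0.05. Whole reads, lengths and library totals were solved from the FPKM in Python 3.11.15 (pandas 2.3.3, numpy 2.4.6) for all 22673 genes above 0, within a relative tolerance of 2e-07. The procedures were tested on simulated data. Totals ran from 14069716 to 17773742 reads, so that 1 read on 1 kb is worth 0.0563 to 0.0711 FPKM. Differences on this scale understate the change of low genes, and read floors cover counting error only. Duplicates differed beyond counting error, with a chi-square per gene of 3.67 in m5567, 5.09 in m8905, 22.4 in m4447 and 9.3 in m9327. The members and lists were chosen with earlier results of these data known. The genes named were the member with the largest height and, of the rest, that with the highest mean FPKM in m9327.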

Additional observations from a re-analysis of the deposited data

Results flagged for a closer look

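The deficient lines lay on opposite sides of the control mean in part of the set, counted by sign alone with no limit on size. In 68 of the 180 members (37.8%) both m4447 libraries lay below the control mean and both m9327 libraries above it, beside 8.76% of all genes tested. In MGP_FVBNJ_G0029467 the m4447 mean lay at -0.48 from the control mean on the log2 scale, where m4447 had 0 reads and the control libraries 0 to 14. The choice of members fixed the direction of m9327 in all of them, so the gap between the 2 shares follows from it and nothing is read from that gap. Line m4447 alone lay below the control mean in 43.9% of members and 57.5% of all genes tested. The latter include genes outside the limit on m4447, which the members met by the choice. The difference between the lines in this contrast was not tested.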

How the results depend on the processing

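The number of members was 159 with a pseudocount of 0.1 and 178 with 0.5, of which 124 and 156 were among the 180. It was 201 without the filter on low values, 165 after quantile normalization, 172 after rescaling by the median ratio and 185 without the last step. A mean of at least 2 FPKM left 92 and a difference of at least 1.5 left 91, which follows from the stricter limits. With 1 library left out the count ran from 160 to 190, of which 145 to 175 were among the 180.

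The comparisons were repeated on the members that passed each filter, 92 at a mean of at least 2 FPKM, 178 after quantile normalization and otherwise 180. The genotype comparison called 0 in each setting with the line as the unit, leaving out 1 library included (0 to 0). It called 175 with 1 coefficient per line in 8 libraries. With the duplicate number as a replicate block it called 175 as well. The control lines differed in 59 members, in 53 with the replicate block (21.8% of all genes) and in 39 to 57 with 1 library left out (14% to 26.5% of all genes), where the lone library is assumed to vary like the others. The other settings gave 47 to 64, and 12.7% to 28% of all genes. Deviations of the libraries numbered 1 correlated across genes at 0.063 between m5567 and m8905 and at -0.181 to 0.063 over all pairs of lines. The labels do not say that a number pairs the lines.

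For the following counts the alternatives were chosen after the data had been seen, and the cause of each change was not tested. Members under 1 FPKM in the other lines numbered 9 at a mean of at least 2 FPKM and 43 at a difference of at least 1.5, and 56 to 92 with 1 library left out. At a difference of at least 1.5, genes raised in 1 line only numbered 28 in m5567, 32 in m8905, 78 in m4447 and 94 in m9327, and lowered ones 21, 10, 80 and, in m9327, 9. With a pseudocount of 0.1, lowered genes numbered 127 in m5567, 79 in m8905, 481 in m4447 and 110 in m9327. With 0.5, m8905 had 42, and at a mean of at least 2 FPKM it had 51 raised genes and m9327 had 96. Depth limits the low members, and the counts describe these 4 lines only.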
